A study of Homo sapiens with 2 samples.

Results

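The genes described here encode collagens, laminins, integrins and the proteins fibronectin, SPARC, P4HA1, P4HA2, PLOD1, PLOD2, LOX and LOXL2. They were chosen by name, from the gene symbol that the platform annotation gives each probe set, and the rule uses no measured value, although the family was proposed with earlier results of these data known. Of 54675 probe sets on the array, 219 carried such a symbol alone, and these stood for 80 of 19775 genes. The expression data came from HEK293T, a human embryonic kidney cell line, transiently transfected by means of polyethylenimine. The control cells received the vector pcDNA3.1-GFP (GFP control) and the others pcDNA3.1-IRX1::GFP, which encodes the homeobox transcription factor IRX1 together with GFP. Cells positive for GFP were sorted 48 h later in both conditions, so that transfection, GFP and sort were shared, and by the labels the conditions differed in IRX1. The question is which of the cell's own genes differ when IRX1 is expressed from a plasmid. For each condition 1 array was analysed, so no error between cultures and no p-value can be given.

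Collagens are triple helices of 3 alpha chains, which are hydroxylated in the endoplasmic reticulum and cross-linked outside the cell. Fibril-forming types give connective tissue its strength, whereas type IV forms the network of basement membranes. Laminins are trimers of an alpha, a beta and a gamma chain and form the other network of basement membranes. Integrins are receptors of an alpha and a beta subunit that bind these proteins and link them to the actin cytoskeleton. Fibroblasts make most of the fibrillar collagen of a tissue.

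Values are MAS5 signals, linear intensities that the authors had put on a common scale, and each gene is given by its brightest probe set, judged by the mean of both arrays. Log2 ratios are of IRX1::GFP to the control, and a gene counts as higher or lower from 2-fold on. A level of background was taken from 107 probe sets of olfactory receptor genes (their 90th percentile), which came to 143 on the control array and 179 on the IRX1::GFP array. Where only 1 signal was above it, a fold is a lower bound, and where neither was, no fold is given. Genes with a mean signal of at least 183 passed the filter on dim probe sets. Probe sets of the same gene differed by an SD of 0.49 on the log2 scale, which leaves out differences between cultures. The ratio of 3-prime to 5-prime signal of ACTB, which reflects RNA integrity, was 3.23 in control cells and 1.64 with IRX1::GFP. For GAPDH this ratio was 1.22 and 1.01, and the part of RNA integrity in the results below was not tested. All 6 markers listed for HEK293-type cells (PAX2, NEFL, NEFM, VIM, KRT8 and KRT18) had a signal above background on at least 1 array. Of the fibroblast markers only DCN and FAP had one, while LUM, PDGFRA, PDGFRB and THY1 had none, and the summed signal of the 6 was 454 in control cells and 678 with IRX1::GFP. The only IRX1 probe set read 33.1 and 57, both under background, and does not check the labels.

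Of the 80 genes, 43 passed the filter. With IRX1::GFP 11 of these were higher and 3 were lower by 2-fold or more, and 29 lay within 2-fold. Among all 12193 genes past the filter, 10.4% were higher and 5.34% lower by the same limit. The median log2 ratio was 0.17 for the 43 genes and 0.07 for all genes. The higher genes were the collagen genes COL1A1, COL6A1, COL13A1, COL27A1, COL11A2, COL18A1, COL2A1 and COL16A1, the laminin gene LAMC3, the integrin gene ITGA7 and the hydroxylase gene P4HA2. The lower genes were COL5A2, LAMA4 and ITGAV. In bulk RNA a smaller number of expressing cells and less RNA per cell cannot be told apart. Both signals were above background for 41 of the 43 genes, with all 11 higher genes and 2 of the 3 lower ones among them, against 8.66% higher and 4.64% lower of all such genes. Many of the higher genes lay just past the limit. COL16A1, COL2A1, COL18A1 and LAMC3 had log2 ratios of 1.02, 1.04, 1.08 and 1.10, and LAMA5 at 0.96, ITGA8 at -0.96 and PLOD2 at -0.93 fell just short of it. Counted as probe sets, 17 of 63 past the filter were higher and 4 lower, against 9.15% and 6.02% of all such probe sets. After median centring, which subtracts the median of all probe sets (0.11), 6 genes were higher and 5 lower, against 8.48% and 7.01% of all genes. After quantile normalization and after loess 5 of the 43 were higher and 4 lower, against 9.02% and 5.82%, and 9.17% and 5.7%, of all genes, so that the share of higher genes was then near that of all genes.

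**Figure D1:**
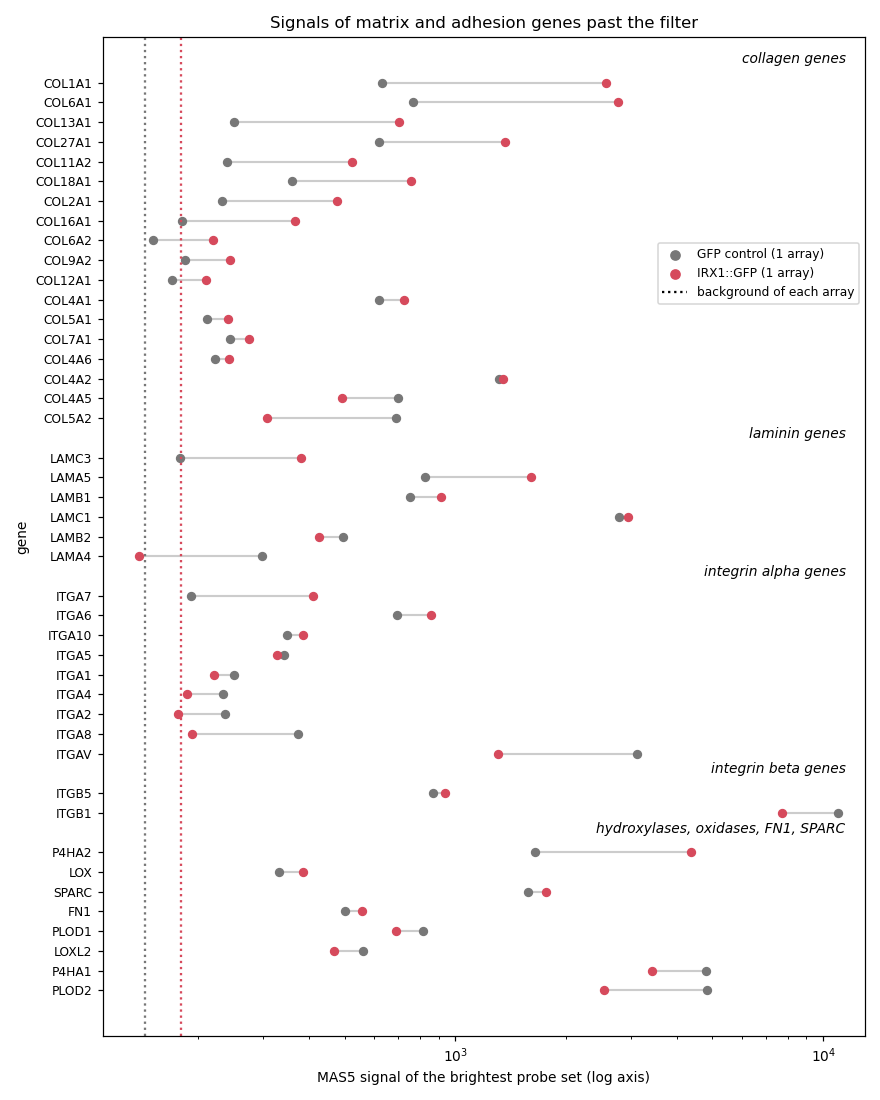
Signals of the brightest probe set (x, log axis) of the 43 genes past the filter (y), grouped by family, with 1 grey point for the GFP control array and 1 red point for the IRX1::GFP array; dotted lines are the background levels, 143 and 179. COL1A1 and COL6A1 show the widest gaps to the right among the collagens, whereas the IRX1::GFP signals of COL5A2, LAMA4 and ITGAV lie to the left of the control.

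Most of the higher genes were collagen genes. Of 18 collagen genes past the filter, 8 were higher and 1 was lower, against 10.4% and 5.34% of all genes. Above 0 were 16 of the 18 log2 ratios, against 6600 of 12193 for all genes past the filter. The collagen median was 0.48. After median centring, quantile normalization and loess, 5, 4 and 4 of the 18 collagen genes were higher, against 8.48%, 9.02% and 9.17% of all genes. Among the fibril-forming collagens, COL1A1, which encodes the alpha 1 chain of type I collagen, read 631 in control cells and 2571 with IRX1::GFP on its brightest probe set. This is 4.08-fold, a log2 ratio of 2.03. The other COL1A1 probe sets past the filter read 352 and 532, and 141 and 302, and a dimmer one read 58.5 and 203. The last, under background on both arrays, read 87.2 on each. The size of the COL1A1 difference therefore depended on the probe set, and the mean over the 3 probe sets past the filter was 1.24. The partner chain gene COL1A2 did not follow. Its brightest probe set read 175 and 169, only the first of which was above the background of its array, and the other 2 probe sets were below 30 on both arrays. COL3A1, another major fibrillar collagen of fibroblasts, was under background on all 5 probe sets.

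COL27A1, a fibril-forming collagen of cartilage, read 619 in control cells and 1361 with IRX1::GFP, 2.20-fold higher. Its second probe set read 173 and 518, and another 175 and 216, so that 2 of the 3 probe sets past the filter were past 2-fold. COL2A1, the main cartilage collagen, read 232 and 476, and COL11A2, which encodes a chain of the cartilage collagen type XI, read 239 and 523. Both were little above 2-fold, at 2.05-fold and 2.19-fold, and COL2A1 rested on 1 of its 2 probe sets. For COL11A2 the other probe set, which did not pass the filter, went from 8.98 to 316 and was at least 2.20-fold higher. COL5A2, a chain of type V collagen, which takes part in starting type I fibrils, was the only collagen gene that was lower. It read 690 and 308, a log2 ratio of -1.16, and its second probe set, which did not pass the filter, read 179 and 83.4. COL5A1, the gene of the partner chain of COL5A2, read 212 and 241, within 2-fold.

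Outside the fibril-forming group, COL6A1 read 767 in control cells and 2767 with IRX1::GFP, 3.61-fold higher. Type VI collagen forms beaded filaments around cells from chains of COL6A1, COL6A2 and COL6A3. Only 1 of the 8 COL6A1 probe sets passed the filter, and the only other one with a signal above background, 151 in the GFP control, read 65 with IRX1::GFP, which was under background. COL6A2 read 151 and 219, within 2-fold, and COL6A3 was under background on both arrays. The brightest COL13A1 probe set, for a collagen that spans the plasma membrane, read 250 and 701, and its other 2 probe sets read 86.5 and 264, and 61.8 and 222. All 3 COL13A1 probe sets were thus on the same side, the brightest at 2.81-fold. COL18A1, the precursor of endostatin in basement membranes, read 359 and 757 on one probe set and 350 and 476 on the other, and its mean over probe sets, 0.76, was within 2-fold. COL16A1, a fibril-associated collagen with a single probe set, read 181 and 367.

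**Figure D2:**
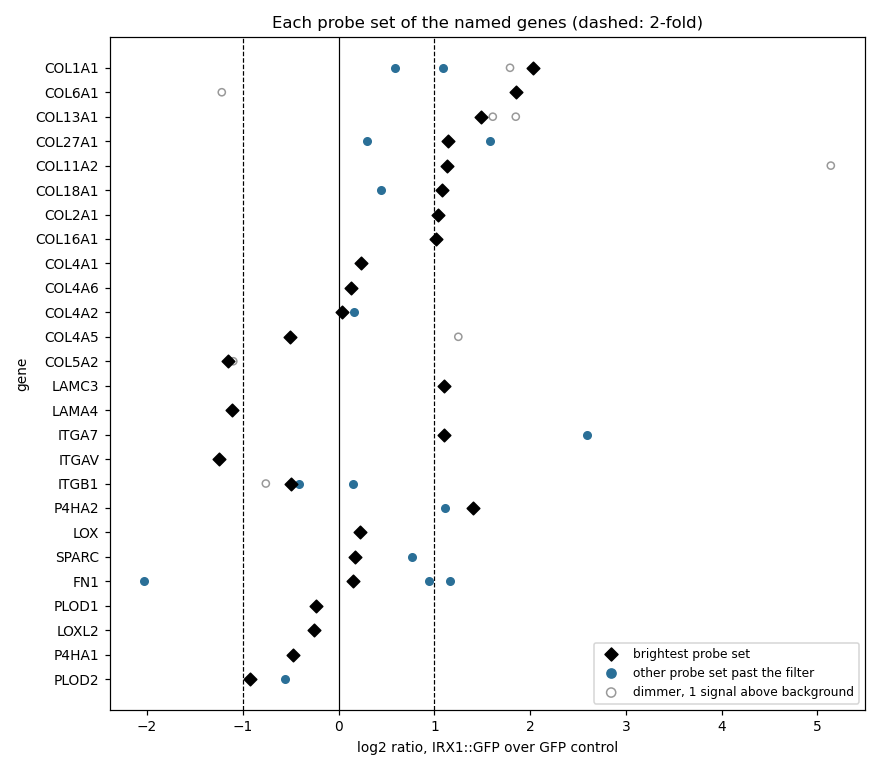
Log2 ratio of IRX1::GFP to control (x) for each probe set of the named genes past the filter (y), 1 array per condition; black diamonds are the brightest probe set, blue points other probe sets past the filter, open points dimmer ones with a signal above background, and dashed lines 2-fold. The FN1 probe sets lie between -2.03 and 1.16, while the COL4A2, COL5A2 and P4HA2 probe sets lie close together.

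The 4 type IV collagen genes that passed the filter were within 2-fold. COL4A1 and COL4A2, whose products form the common network of basement membranes, read 619 and 726, and 1313 and 1349. A second COL4A2 probe set read 231 and 260. Their log2 ratios were 0.23 and 0.04 on the brightest probe sets, less than the SD between probe sets. COL4A1 and COL4A2 start head to head on chromosome 13, 126 bases apart in the RefSeq promoter table, and share what lies between. That stretch is printed because 1 piece of DNA serves both genes, and they had like ratios (GRCh38.p14, chr13:110307158-110307283, plus strand, in the direction of COL4A2). Capitals mark CCAAT and GGGCGG or their complements.
COL4A1-COL4A2: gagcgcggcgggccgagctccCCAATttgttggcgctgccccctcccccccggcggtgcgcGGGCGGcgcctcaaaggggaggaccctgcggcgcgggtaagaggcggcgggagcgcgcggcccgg
COL4A5 and COL4A6 are such a pair on the X chromosome, with 379 bases between their nearest starts. COL4A5 read 699 and 491 and COL4A6 221 and 243. Of the remaining pair, COL4A3 and COL4A4, 418 bases apart on chromosome 2, no probe set had a signal above background. These 2 genes encode chains of mature glomerular basement membrane.

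The upstream stretch of COL27A1 is given because it was the only higher collagen gene with a single start in the table and several probe sets past the filter (GRCh38.p14, chr9:114155287-114155536, plus strand). Capitals again mark GGGCGG and CCAAT, and it holds 2 matches to the first and none to the second.
COL27A1: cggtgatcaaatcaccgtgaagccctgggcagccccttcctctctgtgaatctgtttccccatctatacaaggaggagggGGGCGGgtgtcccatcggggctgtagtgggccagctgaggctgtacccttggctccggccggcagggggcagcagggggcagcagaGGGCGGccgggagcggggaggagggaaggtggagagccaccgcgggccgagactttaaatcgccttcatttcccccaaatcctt
A promoter window, from 250 bases before to 50 after a start, was found in the table for 59 of the 80 genes. The genes without one, which were not searched, include COL1A1, COL6A1, COL5A2 and ITGA7. GGGCGG, a motif known as the GC box, was in at least 1 window of 37 of them (62.7%) against 48.3% of all 27305 genes in the table, counting both strands and every start of a gene. CCAAT was in 20 (33.9%, against 39.7%). ACANNTGT, the palindromic site known for Iroquois homeodomain proteins, was in 2 (3.39%, against 6.84%), of which only ITGA6 passed the filter. These matches describe the letters of the windows, and nothing follows from them about binding.

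Of 6 laminin genes past the filter, 1 was higher and 1 lower, against 10.4% and 5.34% of all genes. The median log2 ratio of the 6 was 0.19. None was higher after median centring, quantile normalization or loess, against 8.48%, 9.02% and 9.17% of all genes. LAMC1, the gamma chain of most laminins, read 2779 in control cells and 2955 with IRX1::GFP, and its second probe set 1084 and 1131. LAMB1 read 751 and 916, and LAMB2 494 and 425, so that the widely used beta and gamma chains were within 2-fold. The second LAMB1 probe set, however, read 309 and 725, a log2 ratio of 1.23. The alpha chains, which carry most binding sites for integrins, differed in direction. LAMA5, the chain of epithelial basement membranes, read 827 and 1604, at 0.96 just short of 2-fold. LAMA4, a chain made by endothelial and mesenchymal cells, read 299 and 138, at least 1.67-fold lower. The LAMA4 signal with IRX1::GFP was not above background, and its log2 ratio of -1.11 became -0.71 with a floor of 182 under all signals. LAMC3 read 178 and 381, 2.14-fold higher on 1 probe set. LAMA1, LAMB3 and LAMB4 were under background on every probe set.

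Of 9 integrin alpha genes past the filter, 1 was higher and 1 lower, against 10.4% and 5.34% of all genes. After median centring, quantile normalization and loess none was higher and 2 were lower. Of all genes 8.48%, 9.02% and 9.17% were then higher and 7.01%, 5.82% and 5.7% lower. Below 0 were 6 of 9 log2 ratios, with a median of -0.18, against 5593 of 12193 for all genes past the filter. Among the subunits that bind the tripeptide RGD of fibronectin and vitronectin, ITGAV read 3117 in control cells and 1309 with IRX1::GFP. This is 2.38-fold lower, a log2 ratio of -1.25, on the only ITGAV probe set. ITGA8 read 374 and 193, short of 2-fold, but another probe set read 171 and 260, on the opposite side of 0. ITGA5, the main fibronectin receptor subunit, read 342 and 326. Among the laminin-binding subunits, ITGA7, a laminin receptor of muscle, read 191 and 409, 2.15-fold higher, and its second probe set went from 84 to 505, at least 3.52-fold. ITGA6 read 695 and 858 and ITGA3, on 1 probe set that did not pass the filter, 39.3 and 222, at least 1.55-fold higher. Of the collagen-binding subunits, ITGA1 read 250 and 221, ITGA2 237 and 176, and ITGA10 349 and 384, all within 2-fold. ITGA4 read 234 and 187.

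Of the 7 integrin beta genes, ITGB1 and ITGB5 passed the filter. ITGB1, the partner of most alpha subunits named above, read 10938 and 7711 on the brightest probe set, and 1935 and 2148, and 1671 and 1259, on the others past the filter. The 3 log2 ratios, -0.50, 0.15 and -0.41, were of the size of the SD between probe sets or smaller. ITGB5, a partner of the alpha V subunit, read 867 and 937. ITGB3 and ITGB8, other partners of alpha V, did not pass, and ITGB8 had no signal above background. Of 6 integrin alpha genes named by letters, which are mainly those of leukocytes and platelets, ITGAE, ITGAM and ITGA2B passed the filter and lay within 2-fold. ITGAE, a subunit of intraepithelial lymphocytes, read 13630 and 15252, and ITGAM 838 and 976. Of 4 leukocyte markers, PTPRC and SPI1 were under background on both arrays, whereas CD14 read 327 and 856 and CD3E 244 and 168, and their part in these values was not tested.

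The enzymes that modify collagen chains differed among themselves. P4HA2 and P4HA1 encode alternative alpha subunits of prolyl 4-hydroxylase, which makes the hydroxyproline that holds the triple helix together. P4HA2 read 1647 in control cells and 4359 with IRX1::GFP, 2.65-fold higher. A second P4HA2 probe set read 370 and 801, and the last, under background on both arrays, 70.7 and 145. The log2 ratio of P4HA2 was between 1.26 and 1.45 under all alternatives. P4HA1 read 4790 and 3422, within 2-fold at -0.48. PLOD2, the lysyl hydroxylase of collagen telopeptides, read 4840 and 2534, and its second probe set 2206 and 1495, log2 ratios of -0.93 and -0.56. PLOD1, the lysyl hydroxylase of the helix, read 815 and 689. The oxidases that cross-link collagen, LOX at 331 and 386 and LOXL2 at 561 and 468, were within 2-fold.

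Upstream stretches of these hydroxylase genes are set out for the alternative subunits of prolyl 4-hydroxylase and for PLOD2, the hydroxylase gene with the most negative ratio. Each is the 250 bases before the only start in the table, on the minus strand (GRCh38.p14; P4HA2 at chr5:132227092-132227341, P4HA1 at chr10:73096867-73097116, PLOD2 at chr3:146161185-146161434). Capitals mark ACGTG or its complement, a form of the core of the element known for hypoxia-inducible factors. Other forms of that core were not searched.
P4HA2: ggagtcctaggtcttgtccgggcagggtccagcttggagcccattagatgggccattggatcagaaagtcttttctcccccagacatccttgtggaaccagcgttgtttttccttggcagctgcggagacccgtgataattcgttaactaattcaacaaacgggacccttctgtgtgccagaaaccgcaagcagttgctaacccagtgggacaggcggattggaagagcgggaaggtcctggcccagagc
P4HA1: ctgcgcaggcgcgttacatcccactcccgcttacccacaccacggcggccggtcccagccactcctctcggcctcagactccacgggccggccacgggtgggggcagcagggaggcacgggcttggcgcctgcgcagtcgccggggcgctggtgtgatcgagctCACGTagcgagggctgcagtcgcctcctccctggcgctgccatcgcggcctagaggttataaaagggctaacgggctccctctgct
PLOD2: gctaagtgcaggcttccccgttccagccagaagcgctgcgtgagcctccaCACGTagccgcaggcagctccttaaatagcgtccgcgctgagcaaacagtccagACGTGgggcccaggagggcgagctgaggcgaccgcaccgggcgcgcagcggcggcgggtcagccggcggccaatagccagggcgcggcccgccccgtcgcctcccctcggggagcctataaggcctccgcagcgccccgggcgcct
The letters ACGTG occur 1 time in the P4HA1 stretch, 2 times in that of PLOD2 and not in that of P4HA2. The window of PLOD1 held none. Of the genes past the filter, COL11A2, COL12A1, COL5A1, ITGA6, LOX, P4HA1 and PLOD2 had a window with them. COL11A2 was higher and the others were within 2-fold. The letters ACGTG were in a window of 11 of the 59 genes (18.6%), against 24.9% of all genes in the table. Their part in the ratios was not tested.

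FN1, which encodes fibronectin, could not be given a direction. Its brightest probe set read 502 in control cells and 556 with IRX1::GFP. Others read 339 and 649 (0.94) and 200 and 449 (1.16), while the remaining one past the filter read 580 and 142, a log2 ratio of -2.03 with the IRX1::GFP signal under background. FN1 was the only gene of the 15 with several probe sets past the filter that had them at least 2-fold on opposite sides. In 11 of the 15 all such probe sets had the same sign. Fibronectin RNA is known for alternative splicing, and which exons each probe set covers was not analysed here. SPARC, a collagen-binding matricellular protein, read 1572 and 1765, and 153 and 261 on its second probe set, within 2-fold on both.

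Of the 37 genes that did not pass the filter, 25 had no signal above background on any probe set. These were 20 collagen genes, among them COL3A1, COL11A1, COL15A1 and COL6A3, the 3 laminin genes named above, and ITGB7 and ITGB8. The other 12 were COL1A2, COL14A1, COL20A1, COL22A1, COL26A1, LAMA2, ITGA3, ITGA9, ITGA11, ITGB2, ITGB3 and ITGB4, each with a probe set above background on 1 array or both. In this group COL26A1 read 114 and 223, at least 1.56-fold higher, COL20A1 235 and 109, at least 1.31-fold lower, and ITGB2 63.5 and 215, of which only the latter was above background. Without a filter 24 of the 80 genes would be called higher and 11 lower, against 17.5% and 10% of all genes.

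Genes that work with collagens and integrins were counted from lists of known function, to be read against the 10.4% higher and 5.34% lower of all genes past the filter. Of 23 genes past the filter for collagen chaperones and processing, 5 were higher and none was lower, with a median log2 ratio of 0.49. The highest was SERPINH1, the collagen-specific chaperone HSP47 and a heat shock gene, which read 1892 and 26578, 14.0-fold higher. PCOLCE, an enhancer of the procollagen C-proteinase, read 266 and 979, and BMP1, that proteinase, 234 and 507 on the only 1 of its 2 probe sets past 2-fold. LOXL1, an oxidase of elastic fibres, read 148 and 485. P4HB, the beta subunit shared by the prolyl 4-hydroxylases, read 31278 and 44928 on its brightest probe set, within 2-fold, and 10782 and 21021, and 1976 and 6725, on its others. KDELR3, which returns proteins to the endoplasmic reticulum, was 2.24-fold higher on 1 of its 3 probe sets past the filter.

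Of 17 further basement membrane components and receptors past the filter, 3 were higher and 1 lower. With both signals above background 1 of 15 was higher, against 8.66% of all such genes. SDC1, a heparan sulfate proteoglycan that binds matrix, read 447 in control cells and 2007 with IRX1::GFP, and both of its probe sets were past 2-fold. LARGE2, which extends the laminin-binding glycan of dystroglycan, was at least 3.41-fold higher and the laminin receptor gene BCAM at least 2.04-fold. The collagen receptor gene DDR2 read 1726 and 842, 2.05-fold lower with 2 of its 4 probe sets past 2-fold, and NID1, which links laminin to type IV collagen, 4353 and 6924, within 2-fold. Of 17 matricellular and fibre proteins only LTBP3, which anchors latent TGF-beta, was past 2-fold on its brightest probe set, from 369 to 889. Of the probe sets past the filter, 2 of 4 for FBLN1, 1 of 5 for VCAN and 1 of 2 for LTBP4 were also at least 2-fold higher. CCN1 at 8052 and 6249 and CCN2 at 735 and 853 were within 2-fold.

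Of 30 genes of the integrin adhesion complex past the filter, 3 were higher and 3 lower, with a median log2 ratio of 0.13, so that the share of higher genes was near that of all genes. FERMT2, a kindlin that activates integrins, read 4936 and 1613, 3.06-fold lower on its brightest probe set, while the other 2 were not past 2-fold. LPXN, a relative of paxillin, read 3348 and 1340 on 1 probe set, the other within 2-fold, and SRC 399 and 107, at least 2.23-fold lower. TGFB1I1, another relative of paxillin, read 167 and 661, KANK2 1032 and 2471, and ITGB1BP1, which encodes an inhibitor that binds the tail of the beta 1 subunit, 2198 and 5478 on 1 of its 2 probe sets, the other within 2-fold. Talin (TLN1), vinculin (VCL), ILK, paxillin (PXN) and PTK2 were within 2-fold. Of 18 matrix proteases and inhibitors past the filter, 5 were higher and none was lower, and with both signals above background 3 of 14 were higher. PLAUR, the urokinase receptor, read 899 and 2196, with all 3 of its probe sets past 2-fold, MMP11 250 and 576, TIMP3 245 and 529 on the only 1 of its 4 probe sets past 2-fold, ADAM15 28.4 and 601, at least 4.19-fold on 1 of its 2, and PLAU 111 and 275, at least 1.92-fold.

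**Figure D3:**
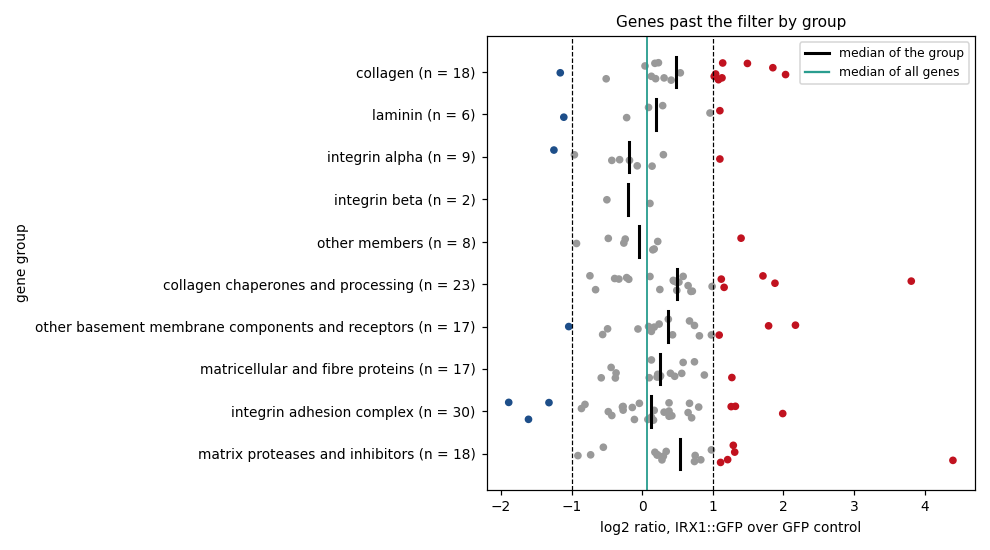
Log2 ratio of IRX1::GFP to control (x) of the genes past the filter in each group (y), 1 array per condition; red points are at least 2-fold higher, blue points at least 2-fold lower, black bars group medians, the green line the median of all genes (0.07) and dashed lines 2-fold. The collagen median is 0.48 and that of the integrin alpha genes -0.18.

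Position and length were compared across the genes as a description. COL18A1, COL6A1 and COL6A2 lie on chromosome 21, with log2 ratios of 1.08, 1.85 and 0.54, and ITGB2, also there, did not pass the filter. Of the 9 genes on chromosome 2, ITGAV and COL5A2 were lower, and ITGA6, ITGA4 and FN1 were within 2-fold on their brightest probe sets. The others, among them COL3A1, did not pass the filter. The 11 higher genes had a median genomic length of 37.7 kb in RefSeq, the 29 genes within 2-fold 81.7 kb, and the 3 lower genes 147 kb. COL1A1 and COL6A1, at 17.5 and 23.3 kb, are among the shorter collagen genes, and COL5A2, at 409 kb, was the longest of the 43 genes. The same order was seen over all genes past the filter, with medians of 12.2 kb for higher, 30.0 kb for genes within 2-fold and 67.5 kb for lower genes. The part of gene length in the differences was not tested.

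The called genes are set apart here by whether they stayed past 2-fold under each processing setting, which some met or missed narrowly. COL1A1, COL6A1, COL13A1, P4HA2 and COL27A1 stayed at least 2-fold higher wherever they passed the filter, and ITGAV and COL5A2 stayed lower. COL27A1 did so narrowly, with log2 ratios of 1.03 after median centring and 1.01 as the mean over probe sets. The measured ratio of LAMA4, with 1 signal under background, was past 2-fold wherever it passed, except with the floor. COL11A2, ITGA7, LAMC3, COL18A1, COL2A1 and COL16A1 were within 2-fold after quantile normalization and loess, with log2 ratios of 0.84 to 0.99. All of these but COL11A2 were also within 2-fold after median centring. COL1A1, COL6A1 and COL13A1 rest on probe sets with a suffix for probes that may be shared with other transcripts, and none of the 3 passed the filter when only probe sets without it were used. COL11A2, LAMC3, COL18A1 and LAMA4 did not pass in that setting either.

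**Figure D4:**
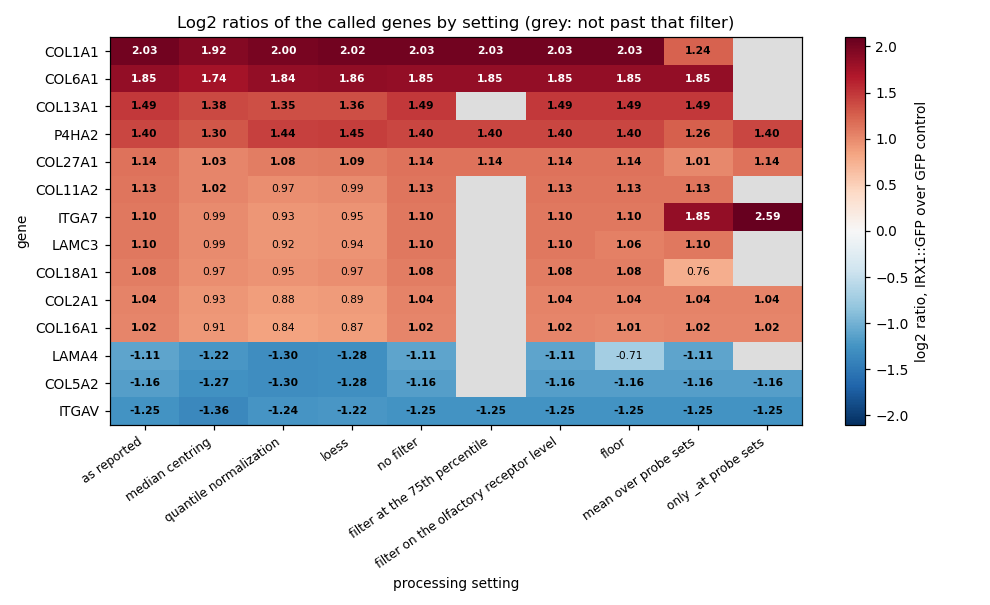
Log2 ratio of IRX1::GFP to control, as colour and number, for the 14 genes called higher or lower (y) under each processing setting (x), 1 array per condition; bold numbers are at least 2-fold and grey cells did not pass that filter. COL1A1 is at 1.24 as the mean over probe sets and between 1.92 and 2.03 in the other settings that measured it.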

How the data were processed

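Total RNA of sorted HEK293T cells was labelled with biotin and hybridised to Affymetrix HG-U133 Plus 2.0 arrays, 1 array per condition. The study's text speaks of replicate arrays, but 1 array per condition was analysed here. Whether it is 1 replicate, a pool or a mean was not given in the sources used here. Per the labels, the submitters' processing notes name MAS5, without a version, and the deposited values are its signal intensity on a linear scale. Both columns had the same mean of 1000 after the top and bottom 2% were set aside. The number of arrays limits precision.

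Of 54675 probe sets 41097 had a single symbol in the platform annotation, and 1801 with several were left out, 5 of them with a symbol of this family. Symbols were updated by gene identifier through the RefSeq gene table (GCF_000001405.40, GRCh38.p14), in which all 80 genes were found. Promoter sequences came from RefSeq (GRCh38.p14). Log2 ratios were computed for the brightest probe set of each gene, and genes with a mean signal under the 50th percentile of all probe sets (183) were left out. The background level was the 90th percentile over 107 probe sets for olfactory receptors. No test between conditions was made. The SD between probe sets was taken over 5930 genes.

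Named were the members at least 2-fold different (at most 12 in each direction), FN1, SPARC, the enzymes, COL4A1 to COL4A6, ITGB1, ITGAV, members with opposed probe sets and up to 4 genes of each related list. Other genes were named after their values were seen. The members and lists were chosen with earlier results of these data known. Other settings tried were loess (span 0.3), quantile normalization, median centring, other filters, a floor, and other choices of probe set. The steps were tested on simulated data. Python 3.11.15, numpy 2.4.6, pandas 2.3.3, statsmodels 0.14.6 and matplotlib 3.10.9 were used.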

Additional observations from a re-analysis of the deposited data

How the results depend on the processing

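No paired analysis was possible because there was only 1 array for each condition, and for the same reason no array was left out. The count of higher genes, 11 of 43, became 6 after median centring, 5 after quantile normalization, 5 after loess, 24 of 80 without a filter, 4 of 12 with a filter at the 75th percentile, 5 of 25 with only _at probe sets, and 17 of 63 when probe sets were counted in place of genes. The share of all genes (or probe sets) that was higher in these settings was 8.48%, 9.02%, 9.17%, 17.5%, 6.68%, 10.2% and 9.15%. The count of lower genes, 3, became 5 after median centring, 11 without a filter, 1 with the filter at the 75th percentile and 6 of 54 with a filter on the olfactory receptor level. The share of all genes that was lower in these settings was 7.01%, 10%, 5.41% and 6.88%. The median log2 ratio of 0.17 was 0.06, 0.04 and 0.06 after median centring, quantile normalization and loess, and between 0.13 and 0.22 in the other settings. No called gene changed sign in any setting that measured it. Of 204 values of 26 named genes under the alternatives, 4 moved by more than the probe set SD (0.49), those of COL1A1 (1.24 as the mean over probe sets), ITGA7 (1.85 as that mean and 2.59 with only _at probe sets) and SPARC (0.77 with only _at probe sets). The cause of these changes was not tested. Settings that changed only the filter kept the same brightest probe set and so the same ratio, and median centring shifted every gene by 0.11. Such values could not move by more than the SD, so the count of 204 overstates how much was checked. Most members lie near the background of the arrays, so that differences of 2-fold in dim genes were at the limit of what 1 array per condition can show.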

Other observations

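Antisense and lettered neighbours of these genes gave values that were chosen after they were seen. LOXL2-AS1, an antisense RNA of LOXL2, read 381 in control cells and 165 with IRX1::GFP, at least 2.13-fold lower, while LOXL2 itself was within 2-fold. ITGAL, the alpha subunit of a leukocyte integrin, read 20.1 and 292, at least 2.04-fold higher, and did not pass the filter.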
